A study of Mus musculus and Homo sapiens with 12 samples.

Results

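ETn and MusD elements are mouse retrotransposons of the ERVK group of endogenous retroviruses. They were taken as all annotated ERVK elements whose subfamily name starts with ETn, MMETn or RLTRETN. The rule found 3770 elements among the 3158171 repeat elements of the mouse table (7078039 in the mouse and human tables together) and 0 elements in the human table. They fell into 5 subfamilies, namely the internal parts MMETn-int (564 elements), ETnERV-int (481), ETnERV2-int (1103) and ETnERV3-int (271), and the long terminal repeat (LTR) RLTRETN_Mm (1351).

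A retroviral element copies itself through RNA: the LTRs at its ends hold the start and stop signals for transcription, and the internal part between them holds the genes. MusD carries retroviral genes for particle proteins and enzymes but no envelope gene. ETn elements are related copies that lost those genes and are mobilized by the proteins of MusD. Both are known for RNA in early mouse embryos and embryonic stem cells, and for insertions that cause mutations in laboratory mice.

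Chromatin-associated RNA (caRNA) of mouse embryonic stem (mES) cells was precipitated with an antibody against 5-methylcytosine (m5C) and sequenced, in 3 libraries of wild-type (WT) cells and 3 of Tet2-knockout (KO) cells. TET2 oxidises methylated cytosine. The comparison asks how the m5C-bound RNA of these elements differs when TET2 is missing. WT and Tet2 KO cells were kept in serum with LIF, CHIR99021 and PD0325901 and were cleared of feeder cells. The cells of both genotypes were gifts from another laboratory, with no clone named, so effects of clone and of genotype cannot be told apart. The study calls its replicates biological. The sources used here give neither the strain nor the cultures or days behind each library, and p-values measure the spread between these libraries. The tables hold repeats and no genes, so the cell type and the loss of Tet2 could not be checked against gene levels.

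The values were estimated counts per element. No input or spike-in column accompanied them, so the amount of an RNA and its m5C enrichment cannot be told apart, and every level is a share of the repeat RNA recovered. The totals over the DNA, LINE, LTR and SINE classes were 2199886 to 3318565 for WT libraries and 1532029 to 1999210 for KO libraries. Every KO library was thus shallower than every WT library, and the part of depth in the results below was not tested. Of the 3770 elements 1602 had counts, 892 to 1049 of them in a WT library and 802 to 876 in a KO library. Levels are given as CPM, counts scaled to a total of 1000000 over the 4 classes.

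The study designed bisulfite amplicons named for MMETn-int and ETnERV-int and a qPCR assay for MusD, and these oligonucleotides show how alike the copies are. Bisulfite treatment turns unmethylated C into T, so the amplicon primers hold no C on the strand that matches the RNA. They are given 5′ to 3′, without adapters or random bases.

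MMETn-int amplicon, forward: tatttttgttgttattgtaagg
MMETn-int amplicon, reverse transcription: aacaaaaattatatcattaataacaccaca
ETnERV-int amplicon, forward: gttattgtaaggtgtttttaggt
ETnERV-int amplicon, reverse transcription: acaaaacctaaacaaaaattatatca
MusD qPCR, forward: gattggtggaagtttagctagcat
MusD qPCR, reverse: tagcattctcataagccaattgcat

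Primer sites were searched with up to 2 mismatches per site and a span of at most 300 bp, on the strand of the element. The MMETn-int amplicon was found in 618 elements, of which 276 were MMETn-int, 238 ETnERV-int and 104 ETnERV2-int. The ETnERV-int amplicon was found in 472 elements, of which 242 were MMETn-int, 215 ETnERV-int and 15 ETnERV2-int. The 618 elements with the MMETn-int amplicon held 83.0% of the ETn and MusD counts, and the 472 with the ETnERV-int amplicon held 81.9%. Both amplicons occurred together in 461 elements. There they spanned 128 bases each, and the ETnERV-int amplicon started 10 bases further along, so both assays read one stretch of RNA, and neither separates MMETn-int from ETnERV-int. Across the genome, exact matches to both primers of an assay numbered 245 for the MMETn-int amplicon, 75 for the ETnERV-int amplicon and 71 for the MusD assay, and of these 243, 75 and 71 lay within ETn and MusD elements. The MusD assay was found in 151 elements, all of them ETnERV-int, and 132 of these also held the MMETn-int amplicon.

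The following stretches are the MMETn-int amplicon in the element with the highest mean count (MMETn-int, chr5:88163234-88167684, minus strand) and in the MusD element with the highest mean count (ETnERV-int, chr2:144149300-144155682, plus strand), both mm10. They are shown because one primer pair reads both kinds of element. Capitals mark the primer sites, and C in them stands for a converted T in the primer.

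MMETn-int, chr5:88163647-88163774, minus strand: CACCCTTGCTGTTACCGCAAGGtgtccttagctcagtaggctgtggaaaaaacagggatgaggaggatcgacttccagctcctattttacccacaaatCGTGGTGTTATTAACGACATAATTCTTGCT
MusD, chr2:144155142-144155269, plus strand: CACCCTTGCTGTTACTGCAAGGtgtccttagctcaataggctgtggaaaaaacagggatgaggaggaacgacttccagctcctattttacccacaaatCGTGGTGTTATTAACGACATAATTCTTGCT

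The stretches matched at 125 of 128 bases. Counted from 1 at the 5′ end, with the MMETn-int base first, they differed by C16T, G36A and T68A, of which C16T lies in the forward primer site. Each held 17 C among the 76 bases between the primers, which are the positions at which m5C could be read. The ETnERV-int element with the second highest mean count overall (chr13:113718730-113723638) carried a stretch identical to the chromosome 5 one over all 128 bases. In all, the 618 elements held 375 different versions of this stretch, and the most common one occurred in 44 elements.

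The MusD assay lies nearer the 5′ end of the element than the amplicons do. Below it is given for the MusD element with the highest mean count and for the MusD element with the lowest p-value in the comparison of KO with WT (chr4:27410659-27417180, minus strand), again with the primer sites in capitals.

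MusD, chr2:144150721-144150869, plus strand: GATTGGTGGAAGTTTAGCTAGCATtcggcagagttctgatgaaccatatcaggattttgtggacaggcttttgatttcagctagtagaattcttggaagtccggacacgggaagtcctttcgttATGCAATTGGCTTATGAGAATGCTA
MusD, chr4:27415611-27415759, minus strand: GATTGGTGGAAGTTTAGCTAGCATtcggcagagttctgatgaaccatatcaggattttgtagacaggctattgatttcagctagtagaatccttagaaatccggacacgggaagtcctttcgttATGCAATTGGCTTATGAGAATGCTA

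These were identical at 144 of 149 bases and differed by G61A, T70A, T91C, G95A and G99A, with the chromosome 2 base first. The second highest MusD element, chr14:8743621-8750476, matched the chromosome 2 stretch at all 149 bases. Among the 151 elements 91 different versions occurred, 1 of them in 22 elements.

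Such similarity bears on the counts. Only 7.99% of the 5394 element values above 0 were whole numbers (tolerance 1e-06), and 31.4% were below 1. Fractions arise where a read is divided, either among copies it matches or among overlapping rows, and these cannot be told apart here. Loci with near-identical sequence or shared bases may thus hold parts of the same reads and were not taken as independent. Rows did overlap: 398 elements lay in 202 overlapping pairs with another element of the group and held 27.2% of its counts, and 11 pairs had equal counts above 0 in every library. Where element and gene or antisense RNA overlap, their reads cannot be told apart, because the strand used in counting is not stated.

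The names did not separate the internal parts cleanly. The usual consensus length was 4844 bp for MMETn-int, 6836 bp for ETnERV-int, 7406 bp for ETnERV2-int and 5808 bp for ETnERV3-int, and the LTR consensus was 322 bp. Elements named MMETn-int but aligned to the 6836-bp consensus held 31.8% of the MMETn-int counts. Among the 8 elements with the highest mean counts were 4 named MMETn-int and 4 named ETnERV-int, and every one of them was aligned to the 6836-bp consensus. The division of counts between MMETn-int and ETnERV-int is therefore partly one of names.

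ETn and MusD elements took a larger share of the repeat counts in every KO library than in any WT library, relative to library totals. With 2 other scalings, both computed on subfamily sums, the groups overlapped. The share was 1.40%, 1.22% and 1.61% in the WT libraries (mean 1.41% ± 0.195, SD, n = 3) and 1.65%, 1.98% and 2.06% in the KO libraries (mean 1.90% ± 0.214, SD, n = 3). The groups did not overlap, with the nearest values in the third WT and the first KO library. The log2 ratio of the means was 0.43 (exact permutation test over 20 assignments, two-sided, p = 0.1, the smallest that 3 against 3 libraries can give). Scaled by the TMM factors of edgeR, the levels were 14409, 12800 and 17942 CPM in WT and 15925, 18713 and 18762 CPM in KO, the groups overlapped, and the log2 ratio was 0.24 (exact permutation p = 0.2). With DESeq2 size factors it was 0.19 (exact permutation p = 0.4), and the groups overlapped again. Both of these scalings were chosen after seeing the data.

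Set against other ERVK elements of the same library, the groups overlapped. The ratio to IAP elements, the other large mouse ERVK group with active copies, was 0.236, 0.184 and 0.269 in WT and 0.267, 0.323 and 0.318 in KO libraries. The first KO library lay just below the third WT library, and the other KO libraries lay above all WT libraries. IAP elements themselves stood at 61857 ± 3895 CPM in WT and 62628 ± 1815 CPM in KO (SD, n = 3). RLTR10 and MMERVK10 elements stood at 12571 ± 1289 and 15524 ± 3514 CPM, with overlapping groups. The remaining ERVK elements stood at 16336 ± 560 and 19847 ± 807 CPM, a log2 ratio of 0.28, and there too every KO library was above every WT library by totals, as for ETn and MusD. The ratio to RLTR10 and MMERVK10 elements was 1.00, 0.982 and 1.42 in WT and 1.28, 1.40 and 1.05 in KO. The ratio to the remaining ERVK elements was 0.832, 0.739 and 1.02 in WT and 0.874, 0.979 and 1.01 in KO. The log2 ratios of the KO over the WT means were 0.40, 0.13 and 0.14 in that order, with exact permutation p-values of 0.2, 0.6 and 0.5, each 0.6 after Benjamini–Hochberg adjustment over the 3 ratios. For the last 2 ratios the third WT library was the highest of all 6 libraries.

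**Figure D1:**
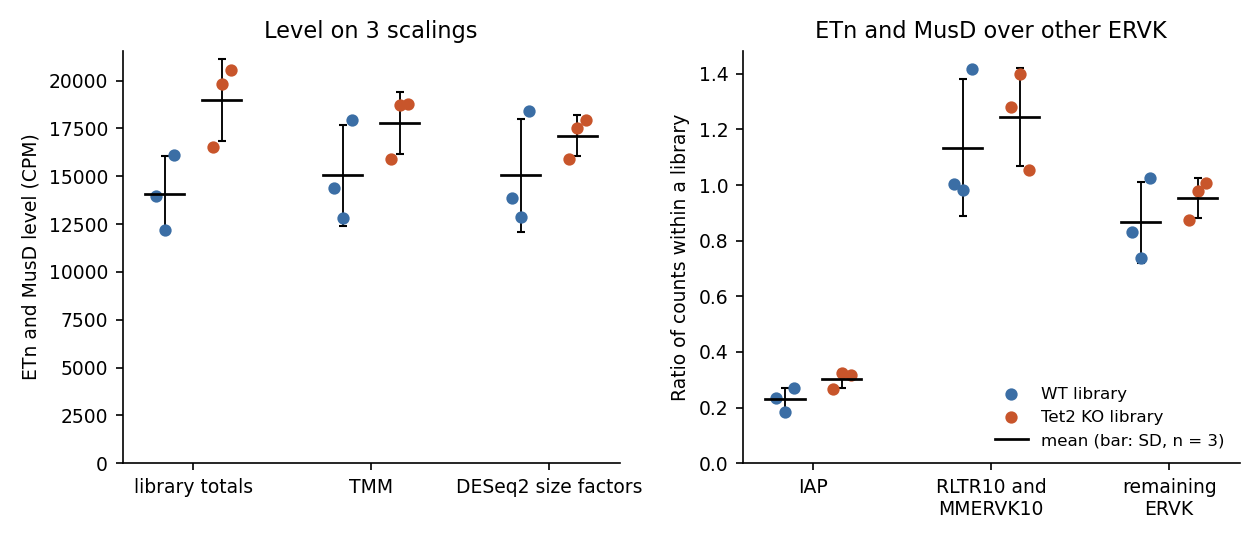
Left, level of ETn and MusD elements in CPM for each WT and Tet2 KO library under library totals, TMM and DESeq2 size factors. Right, ratio of their counts to those of 3 other sets of ERVK elements in the same library. Lines are means and bars SD (n = 3). The KO libraries all lie above the WT libraries under library totals and overlap with them in every other column.

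MMETn-int held 53.0% and ETnERV-int 39.2% of the ETn and MusD counts, and the other 3 subfamilies shared the rest. MMETn-int stood at 8153, 5697 and 8500 CPM in WT and 8112, 11228 and 11409 CPM in KO. Its first KO library lay within the WT range and the other KO libraries lay above it. ETnERV-int, which held every element with MusD sites, stood at 4593, 5334 and 6619 CPM in WT and 7055, 7220 and 7555 CPM in KO. All KO libraries were above all WT libraries, which also held for 86 of the 547 subfamilies tested (15.7%). Under TMM the WT values of ETnERV-int were 4738, 5591 and 7374 CPM and the KO values 6793, 6820 and 6894 CPM, so that the third WT library was above every KO library.

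ETnERV2-int had the most elements of the internal parts but stood at 908, 509 and 536 CPM in WT and 614, 465 and 910 CPM in KO, with nearly the same range in both groups. ETnERV3-int had the lowest mean in both genotypes, at 90.5, 99.3 and 52.8 CPM in WT and 393, 352 and 95.6 CPM in KO. The third KO library lay within the WT range and the other KO libraries lay several times above it. Just 3 of its elements passed the filter on low counts described below. They stood at 21.4, 3.48 and 5.11 CPM in the first KO library and at 48.4, 4.17 and 0.881 CPM in the second. Most of the ETnERV3-int level in these KO libraries thus came from elements that did not pass that filter. RLTRETN_Mm, the LTR, stood at 223, 571 and 396 CPM in WT and 366, 545 and 591 CPM in KO, with overlapping groups. Levels of different subfamilies are best set side by side per length. Lengths here are the spans of elements, which can take in other sequence where fragments were joined. Per kilobase of span, the mean level in WT was 4.35 CPM for MMETn-int, 4.02 for ETnERV-int and 0.942 for RLTRETN_Mm. It was 0.301 for ETnERV2-int and 0.0890 for ETnERV3-int. In KO the levels per kilobase were 5.98, 5.30, 1.19, 0.306 and 0.309 in the same order. MMETn-int and ETnERV-int overlapped per length in both genotypes, and ETnERV2-int and ETnERV3-int did so in KO.

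In the edgeR quasi-likelihood fit over 547 subfamilies, none of the 5 passed an adjusted p of 0.05, against 11 of all subfamilies (2.01%). At an unadjusted p under 0.05 there was 1 of 5, against 87 of 547 (15.9%), and DESeq2's Wald test called 0 of 5, against 56 of 547 (10.2%). The fitted log2 change, KO over WT, was 0.27 ± 0.200 (SE; adjusted p = 0.518) for MMETn-int. By edgeR it was 0.21 ± 0.172 (adjusted p = 0.558) for ETnERV-int and 1.63 ± 0.648 (adjusted p = 0.297) for ETnERV3-int. By the same edgeR fit it was -0.15 ± 0.361 (adjusted p = 0.864) for ETnERV2-int and 0.15 ± 0.429 (adjusted p = 0.877) for RLTRETN_Mm, and neither sign was stable: with library totals alone ETnERV2-int stood at 0.03, and without the first WT library it stood at 0.14 and RLTRETN_Mm at -0.15. The sizes for the main subfamilies also moved with single libraries. MMETn-int stood at 0.092 without the second WT library and at 0.41 without the third WT library. ETnERV-int stood at 0.074 without the first WT library and at 0.39 without the third. The median of all subfamilies tested was 0.12 under TMM and 0.29 with library totals. MMETn-int and ETnERV-int exceeded it by no more than 1 SE under TMM, and with library totals they stood at 0.46 and 0.40.

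**Figure D2:**
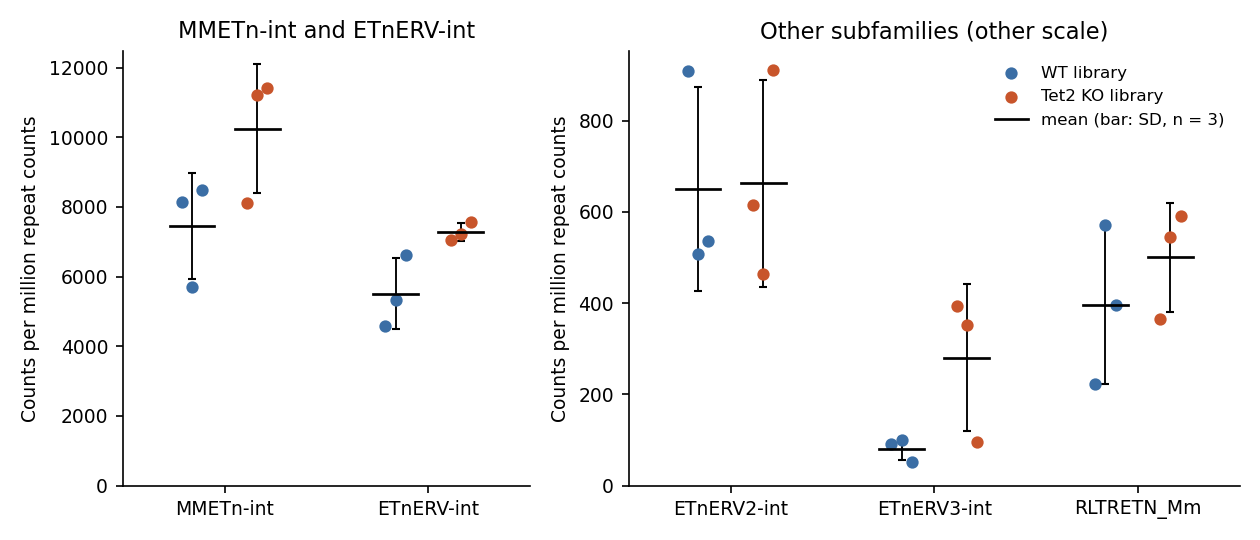
Level of each subfamily in CPM, by library, with WT and Tet2 KO side by side; lines are means and bars SD (n = 3), and the right panel has another scale. ETnERV-int has all KO libraries (7055 to 7555) above the WT libraries (4593 to 6619), and the other subfamilies overlap.

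The elements were also divided by the primer sites and by the LTRs beside them, after the counts had been seen, so the values are a description with no test. The 151 internal parts with MusD sites had a median length of 6538 bp and a GC content of 43.7%, and 113 of them spanned at least 4000 bp. The 496 internal parts with an amplicon site but no MusD site had a median length of 4312 bp and a GC content of 38.0%. The other 1772 internal parts had a median length of 1434 bp, and 292 of them spanned at least 4000 bp. The CpG content was 2.09 per 100 bp in parts with MusD sites, 1.22 in parts with an amplicon site only and 0.612 in the others. Of the LTRs, 552 lay within 10 bp of an internal part on the same strand and 799 did not, with median lengths of 322 and 335 bp and a GC content of 53.0% and 52.8%.

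Parts with MusD sites stood at 2496, 2990 and 3181 CPM in WT and 4764, 4022 and 4383 CPM in KO, with means of 2889 ± 353 and 4390 ± 371 (SD, n = 3). All KO libraries were above all WT libraries by totals and by TMM (2575 to 3544 against 3800 to 4587 CPM), but not with DESeq2 size factors, where the third WT library was at 3638 and the second KO library at 3558. The 71 elements with no mismatch at either MusD primer held 2192, 2557 and 2712 CPM in WT and 4110, 3319 and 3928 CPM in KO. All KO libraries of this set were above all WT libraries by totals, and the other scalings were not computed for it. The set is part of the 151 and held 18.8% of the ETn and MusD counts, against 21.8% for all 151. It is thus no separate support.

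Parts with an amplicon site only held 62.1% of the ETn and MusD counts. They stood at 8826, 7180 and 10865 CPM in WT and 9167, 12276 and 12771 CPM in KO, and the first KO library lay within the WT range. The 111 of them named ETnERV-int stood at 2034, 2145 and 3358 CPM in WT and 2069, 3119 and 3100 CPM in KO. Within ETnERV-int the groups were thus apart by totals for parts with MusD sites and overlapped for parts with an amplicon site only. Within each library, the ratio of MusD-site to amplicon-only counts was 0.283, 0.416 and 0.293 in WT and 0.520, 0.328 and 0.343 in KO. The first KO library had the highest ratio, the second WT library came next, and the groups overlapped.

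Other internal parts stood at 2423, 1469 and 1662 CPM in WT and 2242, 2966 and 2816 CPM in KO. Per kilobase of span, the mean level in WT was 3.19 CPM for parts with MusD sites and 4.93 for parts with an amplicon site only. It was 0.539 for other internal parts. In KO the same levels per kilobase were 4.84, 6.28 and 0.778. LTRs beside an internal part stood at 1.63 CPM per kilobase in WT and 2.28 in KO, and lone LTRs at 0.448 and 0.410. LTRs with a neighbouring internal part thus had the higher mean per length in both genotypes.

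**Figure D3:**
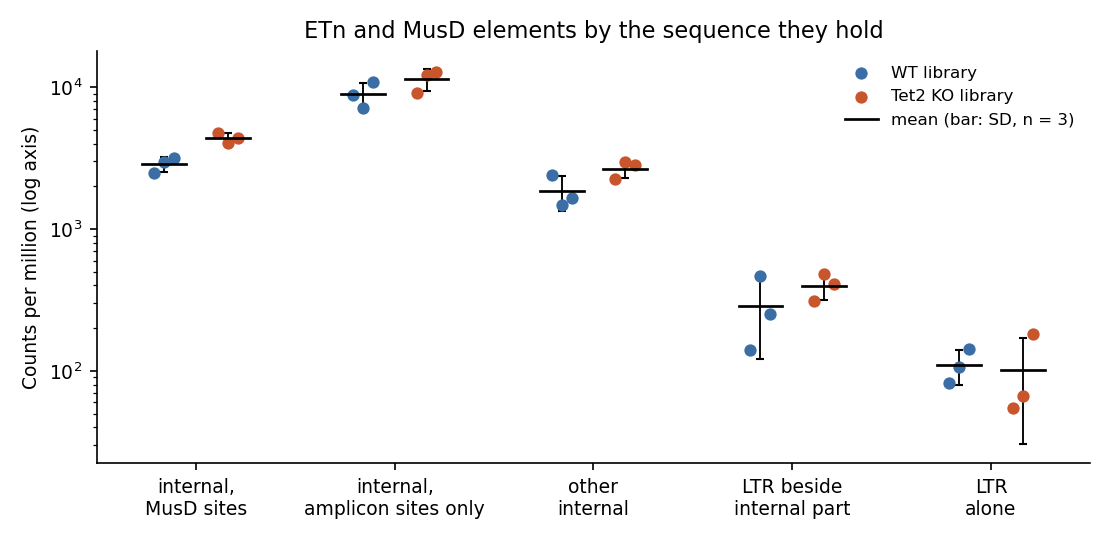
Level of 5 kinds of ETn and MusD elements by library, in CPM on a log axis; lines are means and bars SD (n = 3). Parts with MusD sites have KO libraries at 4022 to 4764 against 2496 to 3181 in WT, whereas lone LTRs run from 54.5 to 182 in KO and from 82.1 to 143 in WT.

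The groups overlapped in how the counts were divided between internal parts and LTRs, long and short elements, and genic and intergenic elements. Internal parts held 98.4%, 95.3% and 97.5% of the ETn and MusD counts in WT and 97.8%, 97.3% and 97.1% in KO. Elements of at least 4000 bp held 81.3%, 82.1% and 83.5% in WT and 85.1%, 82.5% and 82.5% in KO. Elements that overlap an annotated gene on either strand (GENCODE M21) held 26.0%, 26.2% and 25.5% in WT and 23.4%, 26.8% and 26.2% in KO. The exact permutation p-values were 0.9, 0.4 and 0.9, each 0.9 after adjustment over the 3 shares. By place, 2949 elements were intergenic and held 74.3% of the counts, 676 were intronic and held 16.8%, and 145 touched an exon and held 8.97%. Of the genic elements 521 ran opposite to the genes they overlap, 262 ran the same way and 38 overlapped genes on both strands, with 17.0%, 5.25% and 3.49% of the counts.

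Elements of at least 4000 bp numbered 269 among MMETn-int, 151 among ETnERV-int, 150 among ETnERV2-int and 109 among ETnERV3-int. LTRs at both ends flanked 122 internal parts, of which 120 had counts, with a median length of 4855 bp and 13.6% of the counts. All of these were MMETn-int, 106 with an amplicon site and 16 without, and 0 parts with MusD sites were among them. Only RLTRETN_Mm elements within 10 bp were counted as LTRs, and LTRs under other names were not looked for. Parts with no adjacent ETn LTR numbered 1988 and held 71.8%.

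**Figure D4:**
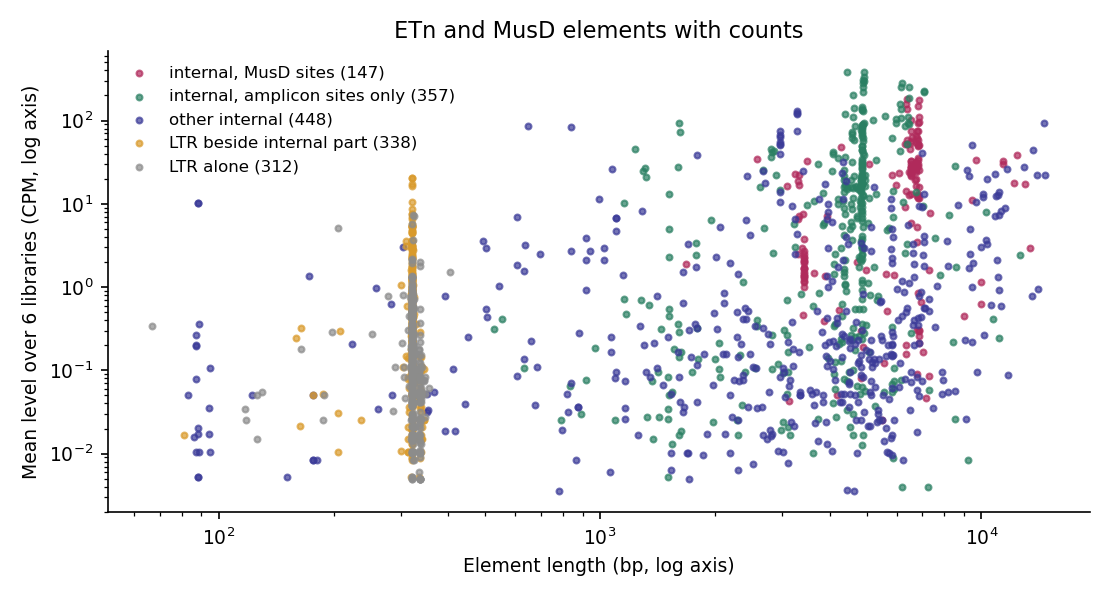
Length of each ETn and MusD element with counts against its mean level over 6 libraries (CPM), both on log axes, coloured by kind. LTRs cluster near 322 bp, parts with amplicon sites near 4.9 kb and parts with MusD sites near 6.5 kb, and levels at 1 length spread over several orders of magnitude.

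A few loci carried much of the RNA. The 10 highest elements held 18.7% of the ETn and MusD counts, with 14.0% to 22.8% by library, and the 100 highest held 68.9%. None of them was among the 10 highest elements of the whole table. The highest, MMETn-int at chr5:88163234-88167684 (4451 bp, minus strand), lies between genes, with Gm11115 as the nearest. It stood at 368, 237 and 624 CPM in WT and 203, 571 and 309 CPM in KO, with overlapping groups. The next, ETnERV-int at chr13:113718730-113723638 (4909 bp, plus strand), is intergenic as well and stood at 328, 207 and 503 CPM in WT and 226, 577 and 441 CPM in KO. In both, the second KO and the third WT library were the highest, and the genotypes were mixed in the order of the libraries.

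The others of the 8 highest were ETnERV-int at chr5:89204098-89209012 in an intron of Slc4a4, a sodium bicarbonate cotransporter, MMETn-int at chr13:8762162-8767065 over an exon of Adarb2, a gene of the RNA-editing deaminase family, MMETn-int at chr14:112366444-112371351, ETnERV-int at chr12:68558392-68563294, MMETn-int at chr12:76222662-76228857 in an intron of Tex21, and ETnERV-int at chr15:55871786-55876688 in an intron of Sntb1, a syntrophin. All 4 genic elements ran opposite to their gene. Mean levels of these 6 loci ran from 192 to 326 CPM in WT and from 236 to 372 CPM in KO. The chromosome 12 element in Tex21 was the only one of the 8 whose groups did not overlap. It stood at 204, 163 and 207 CPM in WT and 312, 238 and 566 CPM in KO, with the third KO library far above the rest (log2 change 1.23 ± 0.355, SE; edgeR adjusted p = 0.126). Without the third KO library its log2 change was 0.77. The fitted log2 changes of the other 7 lay between 0.07 and 0.55, with edgeR adjusted p-values from 0.420 to 0.928, and all 7 moved by more than 1.5 times with 1 library left out. The locus chr13:113718730-113723638 went from 0.55 to 0.22 without the second KO library and to 0.91 without the third WT library. Without the second KO library chr14:112366444-112371351 went from 0.52 to 0.24, and without the first WT library chr12:68558392-68563294 went from 0.54 to 0.28. At the other 4 the sign turned. Mean CPM was lower in KO than in WT at chr5:88163234-88167684 (409.5 in WT, 360.7 in KO), chr13:8762162-8767065 (311.6 and 293.3) and chr15:55871786-55876688 (272.1 and 236.3). CPM uses library totals, whereas their positive fitted changes used TMM factors of loci. With library totals alone the fitted changes were -0.18, -0.085 and -0.20. Every ETnERV-int element among the 8 highest wholly contained a shorter MMETn-int element of the group, counted as its own row. The fitted log2 changes of these shorter elements were 0.87 (inside chr13:113718730-113723638), -0.090 (chr5:89204098-89209012), 0.96 (chr12:68558392-68563294) and 0.84 (chr15:55871786-55876688). The division of reads between these overlapping elements was not tested, so the levels above may not be those of separate loci.

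The 2 MusD elements with the highest mean counts overlapped between groups too. ETnERV-int at chr2:144149300-144155682, in an intron of the long noncoding RNA gene Gm5535 and opposite to it, stood at 95.9, 189 and 164 CPM in WT and 174, 288 and 162 CPM in KO. ETnERV-int at chr14:8743621-8750476, intergenic, stood at 106, 193 and 115 CPM in WT and 257, 124 and 255 CPM in KO.

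Most of the loci tested had a higher fitted value in KO, but none passed the test. Of the 3770 elements 279 (7.40%) passed the filter on low counts, and these held 90.5% of the ETn and MusD counts. The filter asks for a minimum count in as many libraries as a group holds, so a locus can pass through the genotype in which it is high. Of these 279 loci 0 had an edgeR adjusted p under 0.05, against 9 of the 19030 elements tested (0.0473%). At an unadjusted p under 0.05 there were 62 (22.2%), against 4000 of 19030 (21.0%). The 62 comprised 58 that were higher and 4 that were lower in KO, and the 4000 comprised 2492 and 1508. The groups were apart with KO higher at 42 loci (15.1%), against 2206 of 19030 (11.6%), and with KO lower at 9 loci (3.23%), against 3731 of 19030 (19.6%). Whether groups were apart was judged on CPM by library totals, whereas the fitted changes and edgeR p-values used TMM factors of loci.

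The fitted log2 change was positive at 219 of the 279 loci (78.5%), against 51.4% of all elements tested. Its median was 0.76, against 0.03 for all, and it ran from -1.99 to 4.63. With library totals alone it was positive at 194 of 279 (69.5%), against 42.2% of all, and the medians were 0.50 and -0.22. The TMM factors of this fit were computed over loci and raised both medians. Those computed over subfamily sums acted the other way and lowered the median of all subfamilies from 0.29 to 0.12. With a filter on the sum over all libraries, which takes no account of genotype, 653 loci were tested and 404 were positive (61.9%), against 24554 of 53933 (45.5%), and the medians were 0.43 and -0.16. DESeq2's Wald test called 28 of 279 (10.0%), 27 of them higher in KO, against 2158 of 19030 (11.3%), of which 1507 were higher. By kind, the median was 1.04 over 86 loci with MusD sites, of which 79 were positive, 0.53 over 145 loci with an amplicon site only and 0.69 over 46 other internal parts. Just 2 LTRs were tested. By subfamily, the change was positive at 100 of 119 ETnERV-int loci (median 0.81) and 104 of 137 MMETn-int loci (median 0.70). It was positive at 11 of 18 ETnERV2-int loci (median 0.12) and 2 of 3 ETnERV3-int loci (median 0.57). By place, it was positive at 170 of 216 intergenic, 32 of 42 intronic and 17 of 21 exonic loci, with medians of 0.74, 0.85 and 0.75. The splits by kind, subfamily and place used the first filter, through which a locus can pass by being high in the KO libraries alone. They were not repeated with the filter on the sum over all libraries. These counts and medians are over near-identical copies that may share reads, and they carry no test of their own.

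**Figure D5:**
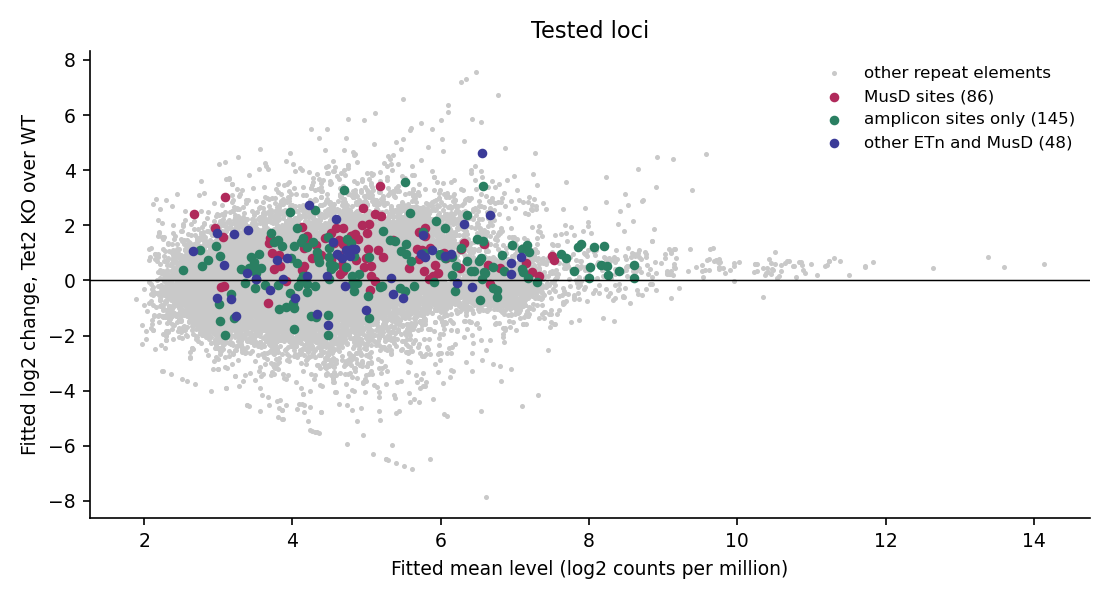
Fitted log2 change of Tet2 KO over WT against fitted mean level (log2 CPM) for the 19030 elements tested, with the 279 ETn and MusD loci in colour by kind. The ETn and MusD loci sit mostly above 0, at a median of 0.76 against 0.03 for all under TMM factors of loci. With library totals alone these medians were 0.50 and -0.22. None of the ETn and MusD loci passed an edgeR adjusted p of 0.05.

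The 4 largest positive changes among loci with groups apart did not pass the test. ETnERV-int at chr4:27410659-27417180, a 6522-bp MusD-site element between genes, stood at 6.56, 3.50 and 7.77 CPM in WT and 76.7, 54.9 and 48.9 CPM in KO. All 3 KO libraries were several times above all WT libraries (log2 change 3.42 ± 0.461, SE), and its edgeR adjusted p of 0.0782 was the lowest of the 279. Its MusD stretch is given above. MMETn-int at chr10:3253791-3254628, an 838-bp piece 1580 bp from H60c, a gene for an immune ligand, stood at 9.58, 9.46 and 2.52 CPM in WT and 43.3, 414 and 27.5 CPM in KO. MMETn-int at chr19:38870002-38874668, with LTRs at both ends in an intron of Tbc1d12 and opposite to it, stood at 24.9, 15.8 and 10.0 CPM in WT and 58.0, 365 and 44.3 CPM in KO. In both the second KO library was far above the other KO libraries. MMETn-int at chr10:30296450-30301300, intergenic and with both LTRs, stood at 7.23, 2.18 and 3.99 CPM in WT and 37.1, 73.4 and 16.8 CPM in KO. The log2 changes of these last 3 were 4.63 ± 1.21, 3.44 ± 0.913 and 3.30 ± 0.711 (SE), with edgeR adjusted p-values of 0.110, 0.112 and 0.101. Without the second KO library chr10:3253791-3254628 stood at 2.43 and chr19:38870002-38874668 at 1.81.

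The 4 largest negative changes among loci with groups apart did not pass the test either, and some loci with overlapping groups had larger ones than the last 3 of these. ETnERV-int at chr6:85869542-85879826, 384 bp from Nat8f2, stood at 10.3, 13.3 and 17.1 CPM in WT and 4.05, 2.15 and 1.17 CPM in KO libraries (log2 change by edgeR -1.99 ± 0.527, SE, with an adjusted p of 0.112). ETnERV2-int at chr19:40015055-40029011, a joined element of 13957 bp that lies 2812 bp from the cytochrome P450 gene Cyp2c37, stood at 24.1, 52.4 and 30.2 CPM in WT and 14.4, 4.60 and 8.48 CPM in KO. MMETn-int at chr7:53885187-53890046, intergenic and with both LTRs, stood at 22.4, 29.2 and 37.8 CPM in WT and 8.42, 7.91 and 12.4 CPM in KO. ETnERV-int at chr17:32373042-32375937, in an intron of Wiz, a zinc-finger gene, where the noncoding gene Gm26858 overlaps as well, stood at 25.4, 34.6 and 39.4 CPM in WT and 14.7, 7.63 and 10.9 CPM in KO. This locus lies wholly inside a longer MMETn-int element of the group that changed the other way. The longer element stood at 147.5, 170.8 and 208.4 CPM in WT and 229.3, 330.9 and 446.4 CPM in KO. Its log2 change was 1.21 ± 0.318 (SE; edgeR adjusted p = 0.111). How reads were divided between these overlapping elements was not tested. That every KO library was below every WT library at these 4 loci follows from how they were chosen. The log2 changes of the last 3 of these 4 loci were -1.62 ± 0.569, -1.31 ± 0.466 and -1.26 ± 0.446 (SE), with edgeR adjusted p-values from 0.177 to 0.180. MMETn-int copies with LTRs at both ends thus occurred among the largest changes in either direction, and no MusD-site element was counted as having both LTRs.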

How the data were processed

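The members and lists were chosen with earlier results of these data known. Before deposit, reads were trimmed (Trimmomatic 0.39), aligned to mm10 (HISAT2 2.1.0), freed of duplicates (Picard) and assigned to repeat elements (featureCounts). Versions are those of the submitters' processing notes. Per the labels, elements came from One code to find them all, which joins fragments of 1 insertion, so a long element can span other sequence. The deposited values are fractional estimated counts that the authors made with counting options not given in the sources used here. The human table was used only to apply the rule.

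Counts per element, or summed per subfamily, were rounded and fitted with the quasi-likelihood test of edgeR 4.0.16 (filterByExpr, TMM, prior count 2, Benjamini–Hochberg over all features, threshold 0.05) in R 4.3.3. TMM factors were computed separately for subfamily sums and for loci, and levels scaled by TMM or size factors used those of subfamily sums. DESeq2 1.42.0 gave alternatives. Intervals of a fit are SE, taken as the absolute log2 change over the square root of F. Shares and ratios had two-sided exact permutation tests on the log2 ratio of group means. The fits were run on simulated counts with known changes, and the check was on the sign of called changes. The exact tests were checked on made-up values. The power of the fits with so few libraries is not given here. Totals of the 4 classes were 2199886, 3171701 and 3318565 counts for WT and 1721262, 1532029 and 1999210 for KO libraries.

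Named were every subfamily with counts, every called locus, the 8 highest loci, the 4 largest rises and 4 largest falls with groups apart, and the 2 highest loci of each assay. For these rises and falls, groups apart was judged by library totals and the size of a change by the TMM fit. Sequences were read from the GRCm38 genome (mm10) with pysam 0.24.0 for 3748 elements, and the other 22 lay on contigs not used. Oligonucleotides came from the study's supplement. Genes were from GENCODE M21, whereas the authors named another release. Same-numbered libraries did not deviate together (r from -0.0711 to -0.00982 over subfamilies), so numbers were not taken as pairs. Leaving out each library, other filters, classes, denominators and scalings were tried.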

Additional observations from a re-analysis of the deposited data

How the results depend on the processing

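With 3 libraries a group, exact tests could not go below 0.1. Of the element values above 0, 31.4% were below 1 count, and the part of depth in the number of calls was not tested. All 7 shares and ratios stayed above 0.05 in every setting. The share of ETn and MusD elements kept its direction in all 15 alternatives, with a log2 ratio of 0.19 to 0.54, and the ratios to IAP, RLTR10 with MMERVK10 and remaining ERVK elements kept theirs in all 11, at 0.26 to 0.53, 0.04 to 0.35 and 0.04 to 0.28. Leaving out 1 library in turn gave 0.34 to 0.54 for the share. The 2 scalings as denominators and the restriction to elements of the usual consensus length (0.48) were added after seeing the data. Each subfamily field held 1 name, so the settings on composite names equal the reported values. Leaving out the 10 highest elements also left the ratios at their reported 0.40, 0.13 and 0.14. Using every class left the share at its reported 0.43.

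Signs turned for values near 0, and the cause was not tested. With group medians the log2 ratio was -0.0044 for the share of internal parts and 0.013 for the share inside genes. Leaving out 1 library gave -0.0086 to 0.014 for the share of internal parts, turned by the second WT library, and -0.062 to 0.034 for the share inside genes, turned by the first KO library. ETnERV2-int turned to 0.026 with library totals alone, to 0.14 without the first WT library and to 0.057 without the second KO library, with -0.42 to 0.14 over all libraries left out. RLTRETN_Mm turned to -0.15 without the first WT library, with a highest value of 0.47 without the second. With library totals alone the loci chr5:88163234-88167684, chr13:8762162-8767065 and chr15:55871786-55876688 turned to -0.18, -0.085 and -0.20. Without the second KO library they stood at -0.42, -0.057 and -0.03, and chr5:89204098-89209012 at -0.21. Without the second WT library these 4 stood at -0.20, -0.05, -0.06 and -0.0045, with chr5:89204098-89209012 last. Without the first WT library chr5:88163234-88167684 stood at -0.0040 and chr15:55871786-55876688 at -0.086. The highest values with 1 library left out were those without the third WT library, 0.53 at chr5:88163234-88167684, 0.89 at chr5:89204098-89209012, 0.61 at chr13:8762162-8767065 and 0.33 at chr15:55871786-55876688.

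No subfamily was called in any setting. For loci, DESeq2's Wald test called 28 where edgeR called 0, among them chr4:27410659-27417180 (adjusted p = 1.82e-09), chr10:30296450-30301300 (0.000353), chr19:38870002-38874668 (0.00296) and chr6:85869542-85879826 (0.0305). Every other setting called 0. The replicate numbers did not pair the libraries. With the replicate block the share had a log2 ratio of 0.43 (exact p over sign changes 0.25, the smallest possible), the 3 ratios 0.41, 0.15 and 0.15, and the shares within the group 0.0045, 0.018 and -0.026, and edgeR called 0 of 5 subfamilies and 0 of 279 loci.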

Other observations

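The elements were spread over all 21 chromosomes of the reference. The X chromosome held 350 elements (9.28%) and 11.2% of the ETn and MusD counts. The Y chromosome held 326 elements (8.65%) and 2.93% of the counts. Of the 326 on the Y chromosome 269 were ETnERV2-int and 13 spanned at least 4000 bp, whereas on the X chromosome 133 were ETnERV2-int and 79 spanned at least 4000 bp. Chromosome 7 held 22 elements with MusD sites, the Y chromosome 20 and the X chromosome 10. Mean levels by library totals were 1601 CPM in WT and 2076 CPM in KO for the X chromosome and 484 and 437 CPM for the Y chromosome, with overlapping groups in both cases.

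Among elements with at least 50 counts in all, 38 of 381 ETn and MusD elements (9.97%) drew at least 90% of their total from a single library. Over all repeats of the 4 classes this share was 14.3% of 28869 elements.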
